A study of Mus musculus with 21 samples.

Results

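Complex I of the respiratory chain is the NADH:ubiquinone oxidoreductase of the inner mitochondrial membrane. Its nuclear-encoded subunits carry symbols that begin with Ndufa, Ndufb, Ndufc, Ndufs, Ndufv or Ndufab followed by a digit, and every gene with such a symbol was taken, with the assembly factors (Ndufaf) left out. This gave 36 of the 13202 genes in the expression table. The proteins of 35 of them are subunits of complex I, and Ndufa4, in spite of its symbol, is now assigned to cytochrome c oxidase (complex IV) and is described apart. Ndufs5, Ndufb1 and the mitochondrially encoded subunits were not analysed here. All 36 genes passed the filter on low values described below.

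Complex I takes electrons from NADH and passes them to ubiquinone while it pumps protons across the inner membrane. Its matrix arm holds the N module, where flavin mononucleotide and iron-sulfur clusters receive the electrons, and the Q module, where ubiquinone is reduced. The membrane arm holds the proton channels, whose core is encoded in mitochondrial DNA and is surrounded by many small accessory subunits. Activated T cells use the respiratory chain to regenerate NAD+ as well as ATP, and complex I is also a source of reactive oxygen species.

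The libraries came from mouse CD8+ T cells kept in culture with IL-2 (10 ng/mL) and harvested on day 8. In 7 groups of 3 libraries, every culture had a first stimulation of 48 h. Polyclonal cells from C57BL/6 mice were activated on plates with antibodies to CD3 and CD28, and were then kept without (polyclonal acute) or with (polyclonal chronic) further plate-bound anti-CD3, renewed every 48 h. OT-I cells, which carry a transgenic T cell receptor for the ovalbumin peptide SIINFEKL, were activated with that peptide and then co-cultured with IFN-γ-treated B16-F10 melanoma cells without (OT-I acute) or with (OT-I chronic) added peptide. A further C57BL/6 set received vehicle in acute and chronic cultures (vehicle acute, vehicle chronic) or 10 mM N-acetylcysteine, a thiol antioxidant, from 48 h of chronic culture (NAC chronic). There was no acute culture with N-acetylcysteine, so its effect can be read in chronic cultures alone. The labels do not say whether libraries of a group came from separate animals or cultures, so a p-value here speaks of the variation among these libraries, which may be technical.

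Values are the deposited RPKM (reads scaled to gene length and to library size, so that levels of different genes can be compared). Tests were run with limma on log2(RPKM + 1), a scale that understates the change of low genes, over the 12630 genes with an RPKM of at least 1 in at least 3 libraries. A gene was called at a Benjamini-Hochberg adjusted p below 0.05 over all genes tested. Whole read numbers recovered from the RPKM values put the libraries at 5347355 to 25218890 reads in listed genes. Single library values below are in the order of the replicate numbers.

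Markers of other cell types differed between the groups. The sum of Cd8a and Cd8b1, which encode the CD8 co-receptor, was 359 to 375 RPKM in the polyclonal acute libraries and 29.8 to 32.5 in the polyclonal chronic ones, and it was 275 to 319.5, 229.6 to 238, 262 to 268, 232 to 235 and 319 to 329 in OT-I acute, OT-I chronic, vehicle acute, vehicle chronic and NAC chronic libraries. The polyclonal chronic libraries thus had the lowest CD8 level, and more CD4 T cell transcripts (3 markers, 377 to 403 against 99.0 to 108) and B cell transcripts (6 markers, 765 to 921 against 5.13 to 15.8). Summed RPKM of 6 melanocyte markers was 6892 to 7177 in OT-I acute and 3703 to 3779 in OT-I chronic libraries, and 3.66 to 4.34, 0.988 to 1.67 and 3.55 to 4.33 in vehicle acute, vehicle chronic and NAC chronic libraries. In the polyclonal libraries, cultured without melanoma cells, it was 22.7 to 58.1 in acute and 20.6 to 39.0 in chronic ones. Libraries also stood apart within groups. In OT-I acute library 3, 35 of the 36 genes lay below the mean of libraries 1 and 2 (median difference -0.37 in log2(RPKM + 1)), and in polyclonal chronic library 2, 33 of 36 lay below the mean of libraries 1 and 3.

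Complex I transcripts were abundant in every group. Summed over the 35 subunits, the level was 3186 ± 81.8 RPKM (mean ± SD, n = 3) in vehicle acute and 3204 ± 525 in OT-I acute libraries, then 3004 ± 93.2 in OT-I chronic, 2592 ± 52.4 in vehicle chronic and 2590 ± 17.0 in NAC chronic libraries. Polyclonal acute and polyclonal chronic libraries were lowest at 2072 ± 105 and 2026 ± 199. OT-I acute libraries overlapped with vehicle acute and with OT-I chronic ones, vehicle chronic libraries with NAC chronic ones, and polyclonal acute libraries with polyclonal chronic ones. As a percent of each library's total RPKM, vehicle chronic (0.562 to 0.579) and NAC chronic (0.621 to 0.633) libraries did not overlap. Nor did polyclonal acute (0.516 to 0.548) and polyclonal chronic ones (0.450 to 0.508) on that scale. All libraries of vehicle chronic lay below all of vehicle acute. Because these are bulk samples, fewer cells of a type and less RNA per cell cannot be told apart. Levels across the experiments also differ in the cells present, as the markers show, and their part in the order was not tested.

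**Figure D1:**
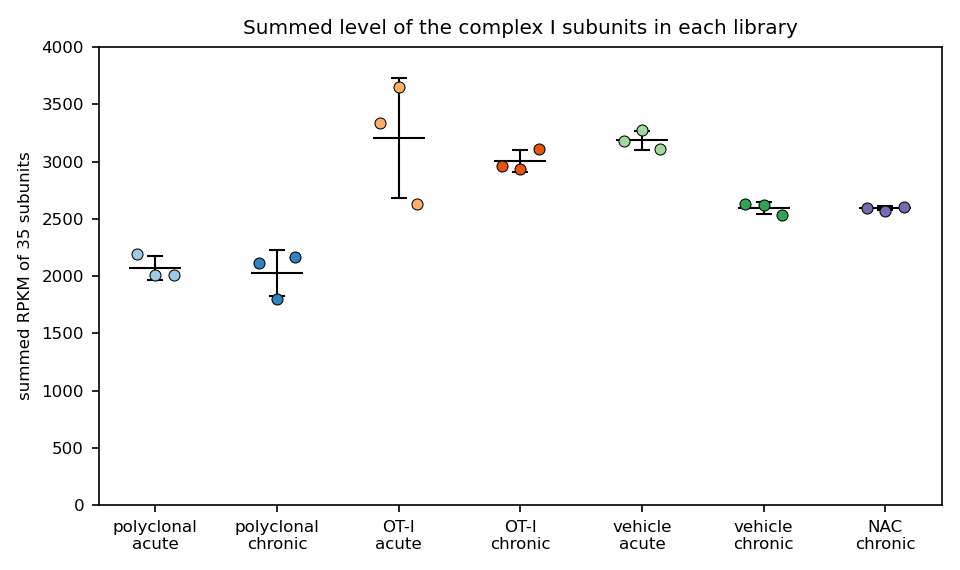
Summed RPKM of the 35 complex I subunits (vertical axis) in each of the 21 libraries (points), with the group mean (bar) and SD (error bar), by group. The polyclonal groups are lowest, and vehicle chronic and NAC chronic libraries lie between 2532 and 2628, below the 3 vehicle acute libraries. OT-I acute library 3 is apart from the other two of its group.

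Single subunits differed far more from each other than the groups did. Averaged over all libraries, Ndufa4 had the highest level at 233.9 RPKM, followed by Ndufa3, a small membrane-arm subunit, at 197.3 and Ndufb7, a subunit of the intermembrane-space face, at 145.5. The lowest were Ndufb4 at 2.91 RPKM, Ndufab1, the mitochondrial acyl carrier protein, at 10.1 and Ndufa11 at 16.3. Ndufb4 rested on 2 to 40 reads a library and shares 37% of its 50-base windows with other annotated genes, so its level is uncertain, and the same holds in part for Ndufs3 (35.8%), Ndufa12 (26.2%), Ndufb9 (23.4%) and Ndufab1 (12.3%). Ndufab1 had 34 to 230 reads.

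The spread of group means was narrow for Ndufb5 (coefficient of variation 11.3% over the 7 groups). It was widest for Ndufa1 (58.8%), an X-linked membrane-arm subunit. In polyclonal acute libraries Ndufa1 measured 18.8, 15.2 and 14.2 RPKM, in polyclonal chronic 16.8, 11.3 and 18.1, in OT-I acute 86.5, 95.8 and 64.6 and in OT-I chronic 82.1, 85.7 and 97.4. In the vehicle and NAC set it measured 48.6, 45.1 and 52.8 in acute, 52.3, 54.7 and 51.4 in chronic and 39.5, 40.1 and 38.2 in NAC chronic libraries. Ndufa1 was thus lowest in both polyclonal groups and highest in both OT-I groups, with no overlap between those experiments. Ndufc1 (50.1%) and Ndufa12 (49.9%) followed. Of the 36 genes, 20 had their lowest group mean in polyclonal chronic cultures and 13 in polyclonal acute cultures, while 13 had their highest in OT-I acute and 12 in vehicle acute cultures.

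The vehicle cultures asked what chronic stimulation does without an antioxidant, and there complex I subunits fell broadly. Of the 36 genes, 26 were lower in vehicle chronic than in vehicle acute libraries (72.2%), 1 was higher and 9 did not pass. Among all genes tested, 34.4% were lower and 24.5% were higher, and among genes with a mean RPKM of at least 20 the share lower was 47.1%. The median change of the 36 genes was -0.33 in log2(RPKM + 1), beside -0.03 for all genes tested. Libraries of the groups did not overlap for 31 of the 36 genes, beside 73.1% of all genes. The melanocyte markers were near 0 in both groups, and the B cell markers summed to 6.41 to 7.62 and 7.05 to 8.89 RPKM. The T cell markers Cd3e, Cd3d and Cd3g summed to 874 to 920 in vehicle acute and 1321 to 1344 in vehicle chronic libraries. The CD8 genes moved apart, with group means from 87.1 to 145 for Cd8a and from 179 to 88.8 for Cd8b1. CD4 markers summed to 33.7 to 34.5 and 18.7 to 21.8, and myeloid markers to 8.68 to 12.0 and 16.5 to 19.0. NK markers summed to 68.5 to 74.0 and 117 to 119. Members of the CD4 and myeloid lists differed in direction. Group means went from 13.9 to 2.39 for Cd4, 4.01 to 0.428 for Cd40lg and 16.0 to 17.4 for Zbtb7b. They went from 9.91 to 16.0 for Cd68, 0.653 to 1.79 for Itgam and 0.0781 to 0.0183 for Mpeg1. For Klrk1 they were 63.1 and 107.5, for Klrb1c 8.68 and 10.5 and for Ncr1 0.0290 and 0.300. The part of these markers in the result was not tested. Leaving out any single library of the 2 groups gave 22 to 25 genes lower. Of the calls lower, those of Ndufa3, Ndufb9, Ndufb11, Ndufs6 and Ndufv1 were lost in at least 1 of these fits.

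**Figure D2:**
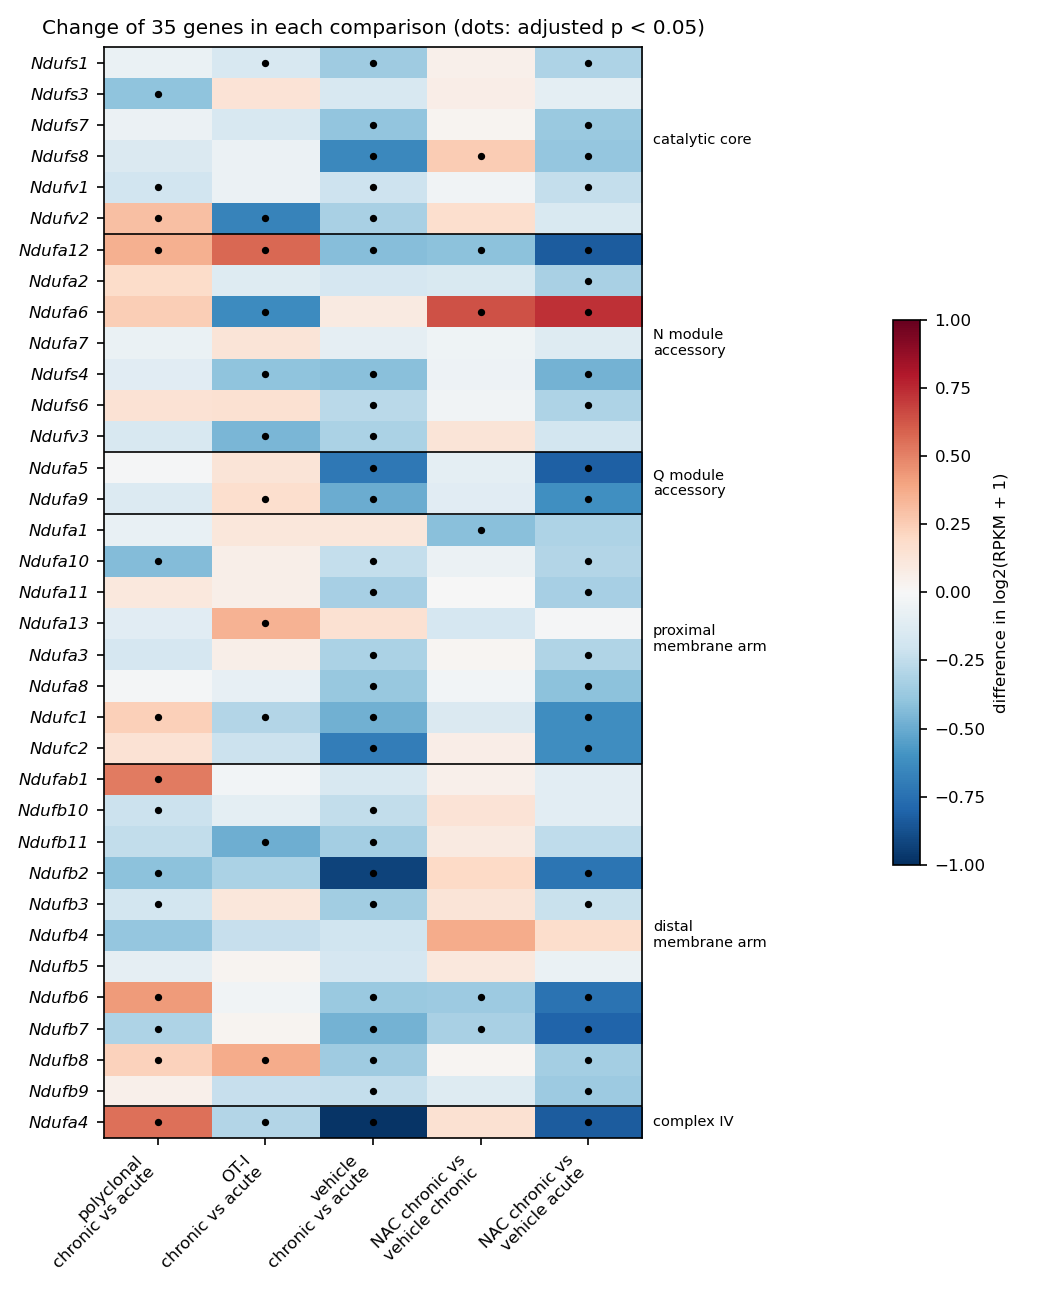
Change in log2(RPKM + 1) of 35 of the 36 genes (rows, grouped by place in the complex) in 5 comparisons (columns). Blue is lower and red is higher in the first-named group, and dots mark adjusted p below 0.05. The vehicle column and the NAC chronic against vehicle acute column, which share the vehicle acute libraries, are mostly blue with 26 and 23 genes lower.

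The catalytic core carries the redox centres. In vehicle cultures 5 of its nuclear subunits fell. Ndufs8, which binds iron-sulfur clusters in the Q module, measured 77.6, 77.9 and 78.0 RPKM in vehicle acute and 50.1, 48.0 and 50.6 in vehicle chronic libraries. Every acute library lay above every chronic one, and the mean fell by 36.3% (log2 change -0.64 ± 0.06 SE, adjusted p = 3.51e-08). Smaller falls were called for Ndufs7 (24.2% lower, adjusted p = 0.00156), which holds the cluster next to ubiquinone, and for Ndufs1 (22.5% lower, adjusted p = 1.18e-06), an iron-sulfur subunit of the N module. Ndufv1, the subunit that binds NADH and flavin mononucleotide, fell from 68.1 ± 2.57 to 58.9 ± 0.598 (SD, n = 3, adjusted p = 0.0152), a call lost with libraries rescaled to a common median (adjusted p = 0.0625 by limma) and without vehicle acute library 2 (adjusted p = 0.0532). Its partner Ndufv2 fell from 72.8 ± 0.847 to 58.0 ± 1.80 (SD, n = 3, adjusted p = 0.00125). Ndufs3 did not pass (log2 change -0.16, 95% interval -0.36 to 0.04).

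Among the accessory subunits of the matrix arm, both of the Q module and 4 of 7 of the N module fell. Ndufa5, which sits on the core subunit Ndufs3, measured 79.8, 86.3 and 81.9 RPKM in vehicle acute and 50.2, 49.4 and 50.0 in vehicle chronic libraries, with no overlap (log2 change -0.72 ± 0.10 SE, adjusted p = 2.98e-06). Ndufa9, at the joint between matrix arm and membrane, measured 94.2, 98.9 and 94.7 and 67.9, 68.1 and 66.8 (log2 change -0.50 ± 0.07 SE, adjusted p = 2.75e-06), again without overlap. Those of the N module were Ndufs4, whose loss in mice causes a Leigh-like encephalopathy, Ndufs6, Ndufv3 and Ndufa12, lower by 17.5% to 26.0%. The Ndufs6 call was lost whichever single library of the 2 groups was left out (limma adjusted p = 0.0535 to 0.167). It was also lost with libraries rescaled to a common median (limma adjusted p = 0.0954). Ndufa12 replaces the assembly factor Ndufaf2 late in assembly. Ndufa2, Ndufa6 and Ndufa7 did not pass. Ndufa6 went the other way (log2 change 0.09) and was called higher with the compared groups alone in the fit (adjusted p = 0.0288 by limma).

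In the membrane arm, 6 of 8 proximal and 8 of 11 distal subunits fell and none was called higher. Ndufb2, a small distal subunit whose gene overlaps Braf on the opposite strand, had the deepest fall among complex I subunits. It measured 90.3, 91.5 and 87.8 RPKM in vehicle acute and 46.6, 48.4 and 45.8 in vehicle chronic libraries. All 3 chronic libraries lay far below the acute ones, and the mean fell by 47.8% (log2 change -0.92 ± 0.14 SE, adjusted p = 1.06e-05). Ndufc2, of the proximal arm, measured 97.4, 101 and 99.5 and 59.5, 63.8 and 60.5 (log2 change -0.69 ± 0.10 SE, adjusted p = 8.61e-06), also without overlap. For its neighbour Ndufc1 the values were 76.9, 67.9 and 72.1 and 52.1, 54.8 and 48.0 (log2 change -0.48 ± 0.09 SE, adjusted p = 0.000158). Ndufb7, one of the subunits with disulfide bonds on the intermembrane-space side, measured 221, 232 and 204 and 161, 156 and 155 (log2 change -0.47 ± 0.10 SE, adjusted p = 0.000278). In all of these the acute libraries were the higher ones. Ndufa13, also known as GRIM-19, and Ndufa1 did not pass in the proximal arm, nor did Ndufab1, Ndufb4 and Ndufb5 in the distal arm. For Ndufb4 the 95% interval of the log2 change ran from -0.95 to 0.55, so its few reads left a fall of the size seen in other subunits undetectable.

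Ndufa4, the complex IV subunit, fell most of all 36 genes. It measured 319, 319.6 and 331 RPKM in vehicle acute and 167, 165 and 157 in vehicle chronic libraries, with no overlap (log2 change -0.98 ± 0.07 SE, adjusted p = 1.75e-10). Chronic libraries were thus lower by 49.6% in the mean. In polyclonal cultures the same gene rose (117, 122 and 130.1 in acute, 181, 173 and 188 in chronic libraries, adjusted p = 7.87e-07), and in OT-I cultures it fell from 359.7, 419 and 324 to 294, 286 and 316 (log2 change -0.29 ± 0.07 SE, adjusted p = 0.00148). The OT-I call was lost with libraries rescaled to a common median (log2 change -0.20, adjusted p = 0.0544 by limma).

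**Figure D3:**
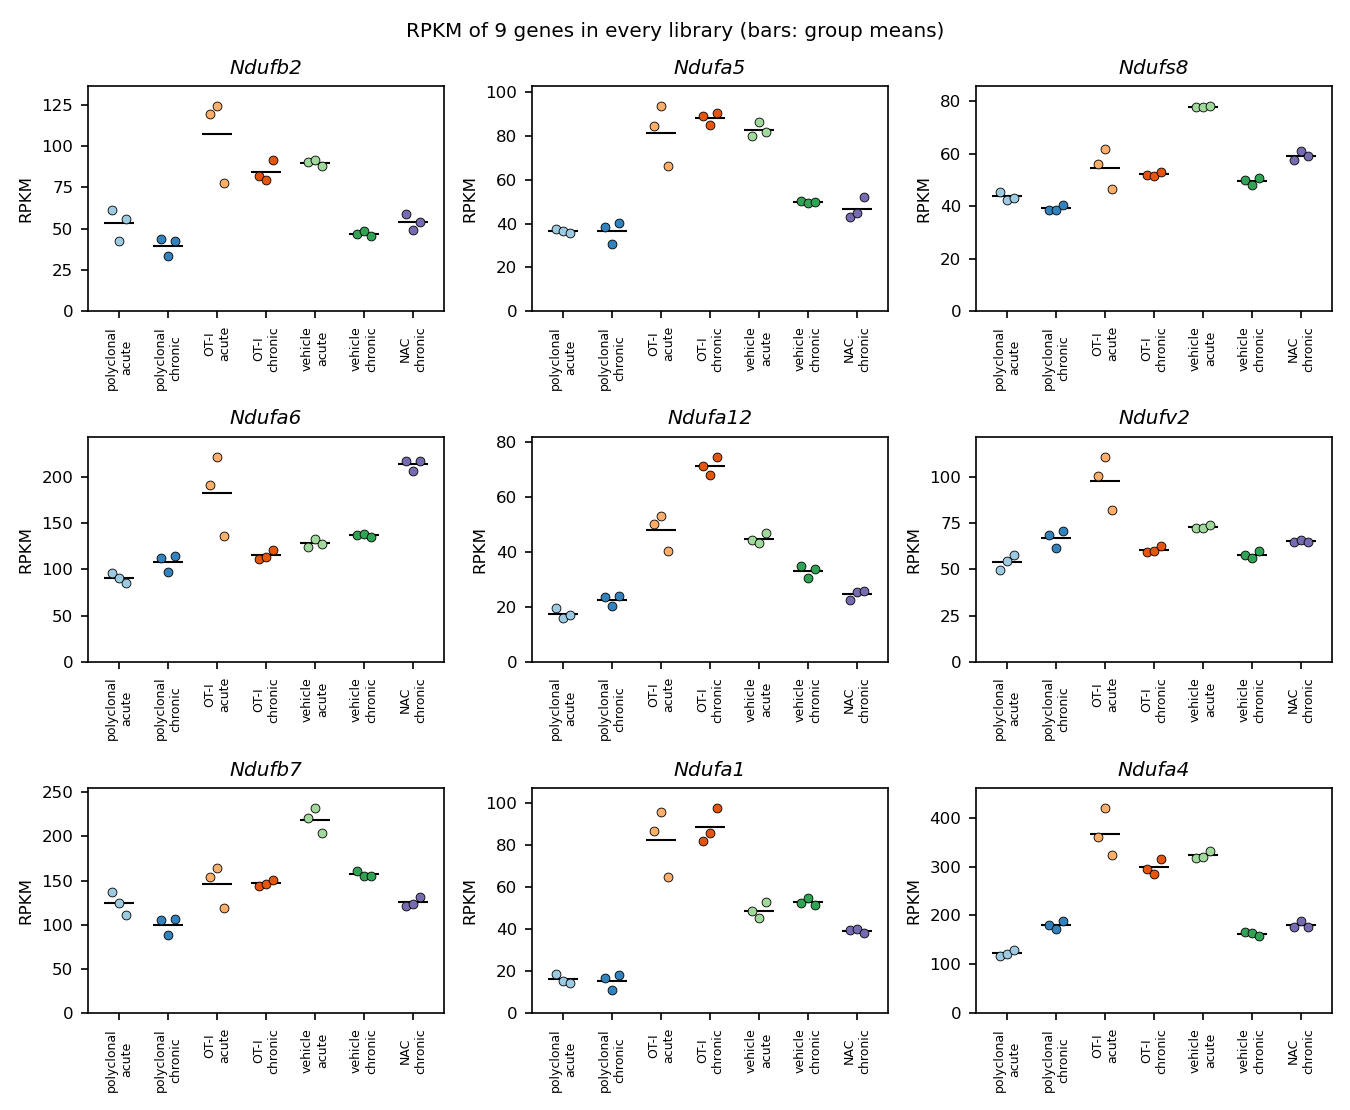
RPKM of 9 genes (one panel each, axis from 0) in every library (points) of the 7 groups, with group means as bars. Ndufb2, Ndufa5, Ndufs8, Ndufb7 and Ndufa4 are lower in vehicle chronic than in vehicle acute libraries, and Ndufa6 is higher in NAC chronic than in vehicle chronic libraries. Within OT-I acute cultures, library 3 is the lowest in all 9 panels.

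Subunits of the other respiratory complexes were read in the same cultures, against shares lower of 34.4% among all genes and 47.1% among genes with a mean RPKM of at least 20. In complex III 7 of 9 were lower and in ATP synthase 11 of 15. In complex II 2 of 4 were lower, and in complex IV, counted without Ndufa4, 5 of 10 were lower and Cox7a2 and Cox7c were higher, shares close to that of genes with high levels. The median change was -0.27 for complex II, -0.34 for complex III, -0.22 for complex IV and -0.29 for ATP synthase, beside -0.32 for the 35 complex I subunits. Differences between the complexes were not tested, and the fall was not shown to be particular to complex I. The Nduf genes are short, with a median length of 744.5 bases against 2918.5 for all genes tested. Within the same length classes the Nduf genes had lower medians than all genes, which were taken at any level. The medians were -0.42 against -0.09 up to 600 bases, -0.34 against -0.06 from 601 to 1000 bases and -0.28 against -0.06 from 1001 to 2000 bases. The part of length or level in the fall was not tested.

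Regulators of respiratory genes were read from a list of 10. In vehicle chronic cultures 4 fell and 2 rose, which is near the shares of all genes tested (34.4% lower, 24.5% higher). Tfam, the packaging and transcription factor of mitochondrial DNA, fell from 20.4 ± 0.499 to 12.2 ± 0.256 RPKM (SD, n = 3, log2 change -0.70 ± 0.06 SE, adjusted p = 2.38e-09), and Nrf1, a transcription factor for respiratory genes, from 12.7 ± 0.722 to 8.73 ± 0.359 (log2 change -0.49 ± 0.07 SE, adjusted p = 2.94e-06). Both were lower in chronic than in acute cultures of all 3 experiments (Tfam -0.24 in polyclonal and -0.46 in OT-I, Nrf1 -0.46 and -0.37, each called). Gabpa and Ppargc1b also fell, and Esrra and Pprc1 rose, in vehicle chronic cultures. Yy1 did not pass there (log2 change -0.04 ± 0.05 SE, adjusted p = 0.523). Ppargc1a was at 0.0255 RPKM in vehicle acute libraries, close to no expression, and at 5.34 in OT-I acute libraries.

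Promoters of the subunits were read for letters that such factors are known to bind, because the members moved together in vehicle cultures. Promoter sequences (RefSeq, build GRCm38.p6, 250 bases before to 50 after the start) were found for 32 of the 36 genes. Printed here are the promoters of Ndufa4 and of 3 of the subunits with the largest falls, chosen after their values were seen so that each shows a different motif. Each is given 5′ to 3′ on the gene's strand, with the motif in capitals. They are Ndufa5 at chr6:24527477-24527776, Ndufa9 at chr6:126849095-126849394, Ndufs8 at chr19:3912725-3913024 and Ndufa4 at chr6:11907401-11907700, all on the minus strand.
Ndufa5: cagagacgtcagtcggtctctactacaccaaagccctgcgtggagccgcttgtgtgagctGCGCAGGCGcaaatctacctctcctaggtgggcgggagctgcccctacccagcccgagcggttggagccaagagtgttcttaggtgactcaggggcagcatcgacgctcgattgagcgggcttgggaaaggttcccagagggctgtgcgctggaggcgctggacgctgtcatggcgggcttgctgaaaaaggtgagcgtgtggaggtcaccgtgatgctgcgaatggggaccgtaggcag
Ndufa9: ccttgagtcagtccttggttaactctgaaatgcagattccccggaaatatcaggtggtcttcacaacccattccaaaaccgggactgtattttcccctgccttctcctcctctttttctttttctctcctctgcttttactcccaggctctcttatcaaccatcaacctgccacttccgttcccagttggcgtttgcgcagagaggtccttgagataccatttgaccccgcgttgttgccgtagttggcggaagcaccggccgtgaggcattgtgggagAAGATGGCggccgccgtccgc
Ndufs8: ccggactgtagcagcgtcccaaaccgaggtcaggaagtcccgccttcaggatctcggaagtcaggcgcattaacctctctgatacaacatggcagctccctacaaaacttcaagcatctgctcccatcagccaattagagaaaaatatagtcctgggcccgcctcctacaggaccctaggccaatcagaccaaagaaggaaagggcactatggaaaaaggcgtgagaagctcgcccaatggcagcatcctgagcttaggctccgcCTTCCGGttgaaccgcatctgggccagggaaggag
Ndufa4: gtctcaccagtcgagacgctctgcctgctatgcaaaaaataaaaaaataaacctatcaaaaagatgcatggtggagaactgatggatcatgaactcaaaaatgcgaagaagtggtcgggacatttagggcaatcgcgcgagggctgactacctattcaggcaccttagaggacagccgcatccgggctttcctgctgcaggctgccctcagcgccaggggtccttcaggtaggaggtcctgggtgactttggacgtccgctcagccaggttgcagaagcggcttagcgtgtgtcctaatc
The capitals mark the NRF1 letters GCGCANGCG in Ndufa5, the YY1 letters AAGATGGC in Ndufa9 and the ETS-family letters CCGGAAG, read on the opposite strand, in Ndufs8. Ndufa4 held none of the 3.

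Both strands were searched, and no matches of different motifs overlapped in the Nduf promoters. The YY1 letters stood in promoters of 7 of 32 Nduf genes (21.9%) and in 2.75% of 32851 promoters of all genes. The NRF1 letters stood in 7 (21.9%, beside 6.25%) and the ETS letters in 4 (12.5%, beside 8.86%). For comparison, CCAAT stood in promoters of 10 genes (31.2%, beside 37.4%) and TATAAA in those of 4 (12.5%, beside 13.6%). A few genes had more than 1 promoter and count once, while the shares over all are shares of promoters. The 7 genes with the YY1 letters, Ndufa3, Ndufa9, Ndufb8, Ndufc1, Ndufs4, Ndufs6 and Ndufs7, were all called lower in vehicle chronic cultures. So were 5 of 7 with the NRF1 letters, 3 of 4 with the ETS letters and 10 of 15 with none of these. With CCAAT 7 of 10 were lower and with TATAAA 3 of 4. These counts stand beside 72.2% of the 36 genes and 34.4% of all genes tested. The calls of Ndufa3 and Ndufs6 were lost when single libraries were left out, as given above. A match is a description of letters in this window and no evidence of binding, and these counts were not tested.

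The NAC cultures asked whether an antioxidant changes these levels under chronic stimulation. The summed levels overlapped (2590 ± 17.0 RPKM in NAC chronic, 2592 ± 52.4 in vehicle chronic libraries), and single subunits went both ways. As a percent of each library's total RPKM, the sum was higher with NAC (0.621 to 0.633, beside 0.562 to 0.579), so its direction depends on the scale. Of the 36 genes, 2 were higher and 5 lower in NAC chronic than in vehicle chronic libraries, while 38.5% of all genes tested were higher and 22.6% lower. The median change was 0.01, beside 0.08 for all genes. Short genes ran lower here, with a median over all genes of -0.08 up to 600 bases, 0.01 from 601 to 1000 and 0.05 from 1001 to 2000. The Nduf genes of these classes had medians of -0.03, 0.05 and -0.05. Libraries did not overlap for 18 of 36 genes, beside 75.8% of all genes. With libraries rescaled to a common median, 1 of the 36 was higher and 13 were lower (26.8% and 32.6% of all genes), and the share of all called genes that were higher went from 63.0% to 45.1%. With the compared groups alone in the fit, 8 were higher and 8 lower (45.1% and 27.3% of all genes). The 3 CD4 markers summed to 71.9 to 73.6 RPKM in NAC chronic libraries, beside 18.7 to 21.8 in vehicle chronic ones, and all 3 were called higher. B cell markers summed to 21.6 to 22.9 and 7.05 to 8.89, and myeloid markers to 26.1 to 28.8 and 16.5 to 19.0. The T cell markers Cd3e, Cd3d and Cd3g summed to 1512 to 1559 and 1321 to 1344. Group means in NAC chronic and vehicle chronic libraries were 138 and 145 for Cd8a and 184 and 88.8 for Cd8b1. NK markers summed to 191 to 199 and 117 to 119. Of the NK list, Klrk1 was at 186 and 107.5, Klrb1c at 7.25 and 10.5 and Ncr1 at 0.272 and 0.300. The part of these markers in the result was not tested.

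Ndufa6 stood out upward. This LYR-motif protein of the matrix arm holds the acyl carrier protein to the complex. It measured 124, 133 and 128 RPKM in vehicle acute, 137, 138 and 135 in vehicle chronic and 216, 206 and 217 in NAC chronic libraries. All NAC libraries lay above every library of both vehicle groups, and the mean was higher by 56.1% than in vehicle chronic (log2 change 0.64 ± 0.11 SE, adjusted p = 3.76e-05). It was also called higher than in vehicle acute (log2 change 0.73 ± 0.11 SE, adjusted p = 5.71e-06). Ndufs8 rose by a smaller step, from 50.1, 48.0 and 50.6 to 57.7, 61.1 and 59.1 (log2 change 0.25 ± 0.06 SE, adjusted p = 0.00198). All of its NAC chronic libraries lay above vehicle chronic ones and below vehicle acute ones, and it was still lower than in vehicle acute (adjusted p = 2.46e-05). The call against vehicle chronic was lost with libraries rescaled to a common median (log2 change 0.08, adjusted p = 0.385 by limma).

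Downward, the largest step was that of Ndufa1 (52.3, 54.7 and 51.4 in vehicle chronic, 39.5, 40.1 and 38.2 in NAC chronic libraries, log2 change -0.42 ± 0.14 SE, adjusted p = 0.0143). NAC libraries lay below all vehicle libraries, acute ones included, but the change against vehicle acute (log2 change -0.31) was not called. It was called with libraries rescaled to a common median (limma adjusted p = 0.0146), with the compared groups alone in the fit (0.00274) and on recovered reads (limma-voom, 0.0378). Ndufa12 measured 44.5, 43.4 and 46.8 in vehicle acute, 35.1, 30.7 and 34.0 in vehicle chronic and 22.7, 25.6 and 26.0 in NAC chronic libraries. These 3 groups did not overlap and descended in that order (NAC against vehicle chronic, log2 change -0.41 ± 0.09 SE, adjusted p = 0.000646). Ndufb7 went from 161, 156 and 155 to 121, 124 and 131 (log2 change -0.33 ± 0.10 SE, adjusted p = 0.00645; -0.50 with libraries rescaled to a common median), and Ndufb6, a distal membrane-arm subunit, from 77.0, 76.1 and 73.2 to 55.7, 57.8 and 61.7 (log2 change -0.37 ± 0.12 SE, adjusted p = 0.00959). Both were likewise lower in NAC chronic than in vehicle chronic and lower there than in vehicle acute libraries, without overlap.

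Set against vehicle acute, the NAC chronic libraries had 23 of 36 genes lower and 1 higher, where 29.9% of all genes tested were lower and 36.3% higher. Among genes with a mean RPKM of at least 20, 45.2% were lower and 32.9% higher. The median change was -0.31, beside 0.04 for all genes. The median of all genes changed with length here, from -0.14 up to 600 bases to 0.09 over 4000 bases. Within length classes the Nduf genes had medians of -0.62 up to 600 bases, -0.32 from 601 to 1000 and -0.21 from 1001 to 2000. All genes of these classes had -0.14, -0.02 and 0.005. This comparison shares the vehicle acute libraries with the vehicle chronic one, so the similarity of their counts is no separate evidence. The values stand side by side. Ndufa12 was at -0.83 in NAC chronic against vehicle acute and at -0.42 in vehicle chronic against vehicle acute, both in log2(RPKM + 1). The same pair of changes was -0.83 and -0.98 for Ndufa4, -0.82 and -0.72 for Ndufa5, and -0.80 and -0.47 for Ndufb7. For Ndufb6 it was -0.74 and -0.37, for Ndufb2 -0.73 and -0.92, and for Ndufc2 -0.62 and -0.69. Adjusted p-values from limma for the NAC change ran from 1.98e-09 (Ndufa4) to 0.000135 (Ndufb2) in these genes. Libraries of the groups did not overlap for 30 of 36 genes, beside 77.9% of all genes.

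**Figure D4:**
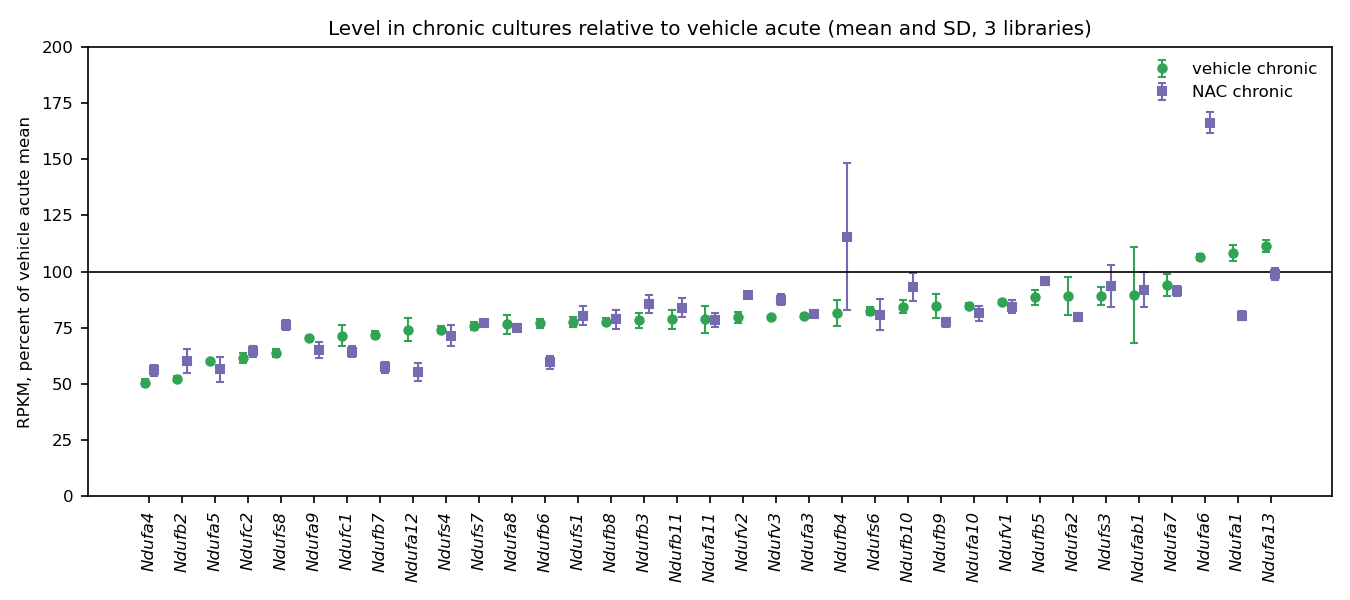
RPKM of 35 of the 36 genes in vehicle chronic (circles) and NAC chronic (squares) libraries as a percent of the vehicle acute mean, with SD over 3 libraries, ordered by the vehicle chronic value. The line marks 100%. Most values lie below the line in both groups, and the Ndufa6 square (166%) is far above it.

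In polyclonal cultures, chronic stimulation moved subunits in both directions. Of the 36 genes 7 were higher and 7 lower, where 28.6% of all genes tested were higher and 35.5% lower. The median change was -0.06, beside -0.08 for all genes, and libraries did not overlap for 14 of 36 genes, beside 59.6% of all genes. Either share (19.4%) was below its background. The polyclonal groups differ in CD8, CD4 and B cell markers as given above, and the part of other cells in these changes was not tested.

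Ndufa10, a kinase-fold subunit of the membrane arm, had the firmest fall. It measured 97.8, 101 and 95.4 RPKM in acute and 73.6, 68.0 and 75.6 in chronic libraries, without overlap (log2 change -0.43 ± 0.05 SE, adjusted p = 1.04e-07). Ndufs3, a core subunit of the Q module, measured 16.3, 20.9 and 18.7 and 15.5, 12.5 and 13.5 (log2 change -0.40 ± 0.09 SE, adjusted p = 0.00092). Acute libraries were again the higher ones. Ndufb2 measured 61.4, 42.7 and 55.6 and 43.6, 33.2 and 42.2, and acute library 2 lay within the chronic range (log2 change -0.41 ± 0.14 SE, adjusted p = 0.0164). Ndufb7 measured 137, 125 and 111 and 106, 88.5 and 107, without overlap (log2 change -0.31 ± 0.10 SE, adjusted p = 0.00912). The calls of Ndufs3 and Ndufb2 were lost in a fit on recovered reads (limma-voom adjusted p = 0.0549 and 0.0651), and that of Ndufb2 also with libraries rescaled to a common median (adjusted p = 0.0503). The Ndufs3 change was -0.26 without library 2 of both groups.

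Upward, Ndufb6 measured 55.3, 46.3 and 56.3 in polyclonal acute and 77.2, 56.9 and 80.3 in polyclonal chronic libraries (log2 change 0.42 ± 0.12 SE, adjusted p = 0.00307). The groups were separate by a narrow margin, since chronic library 2 was close to the acute ones. Ndufa12 measured 19.6, 16.0 and 17.0 and 23.8, 20.3 and 24.0 (log2 change 0.35 ± 0.09 SE, adjusted p = 0.0021), without overlap. Ndufab1 measured 7.03, 8.42 and 4.96 and 7.89, 12.8 and 9.90, and here the groups overlapped (log2 change 0.52 ± 0.17 SE, adjusted p = 0.00951). The calls of Ndufa12 and Ndufab1 were lost in the fit on recovered reads (limma-voom adjusted p = 0.119 and 0.0793). Ndufv2 rose from 54.2 ± 4.08 to 66.9 ± 4.95 (SD, n = 3, adjusted p = 0.00213). Of the 14 calls, 8 were lost when a single library was left out. The number lower was 2 without polyclonal acute library 1, 3 without polyclonal chronic library 2 and 3 without library 2 of both groups (35.4% of all genes), and the number higher was 4 without polyclonal acute library 3.

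OT-I cultures compared T cells that met melanoma cells with and without their peptide. With all libraries, 4 of the 36 genes were higher and 8 lower in OT-I chronic than in OT-I acute libraries, where 22.4% of all genes tested were higher and 36.2% lower. The median change was -0.04, beside -0.12 for all genes, and libraries did not overlap for 12 of 36, beside 65.1% of all genes. OT-I acute library 3 decided these counts. Without it, 2 genes were higher and 17 lower (22.8% and 34.0% of all genes tested), the median change was -0.15, beside -0.09 for all genes, and 29 of 36 changes were negative. That library ran low in short genes of all kinds, with a median difference of -0.35 from libraries 1 and 2 for genes up to 600 bases and 0.20 for genes over 4000 bases. Melanocyte markers were lower in the chronic group, as given above, while the 6 B cell markers summed to 319 to 333 RPKM in OT-I acute and 718 to 748 in OT-I chronic libraries, with 5 of them called higher. Myeloid markers summed to 6.97 to 9.08 and 21.2 to 23.7. Group means were 1.96 and 15.6 for Mpeg1, 4.87 and 5.93 for Cd68 and 0.887 and 0.779 for Itgam. The T cell markers Cd3e, Cd3d and Cd3g summed to 598 to 779 in OT-I acute and 487 to 506 in OT-I chronic libraries. For Cd8a the group means were 106 and 98.3, and for Cd8b1 193 and 135. CD4 markers summed to 36.3 to 41.3 and 23.2 to 24.5. Zbtb7b fell from 36.9 to 20.7 and Cd4 from 1.43 to 0.603, while Cd40lg rose from 1.13 to 2.51. NK markers summed to 53.9 to 56.7 and 56.0 to 60.5. Klrk1 went from 53.3 to 47.3, Klrb1c from 1.47 to 6.15 and Ncr1 from 0.893 to 5.18. The part of RNA from these cells in the changes was not tested.

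**Figure D5:**
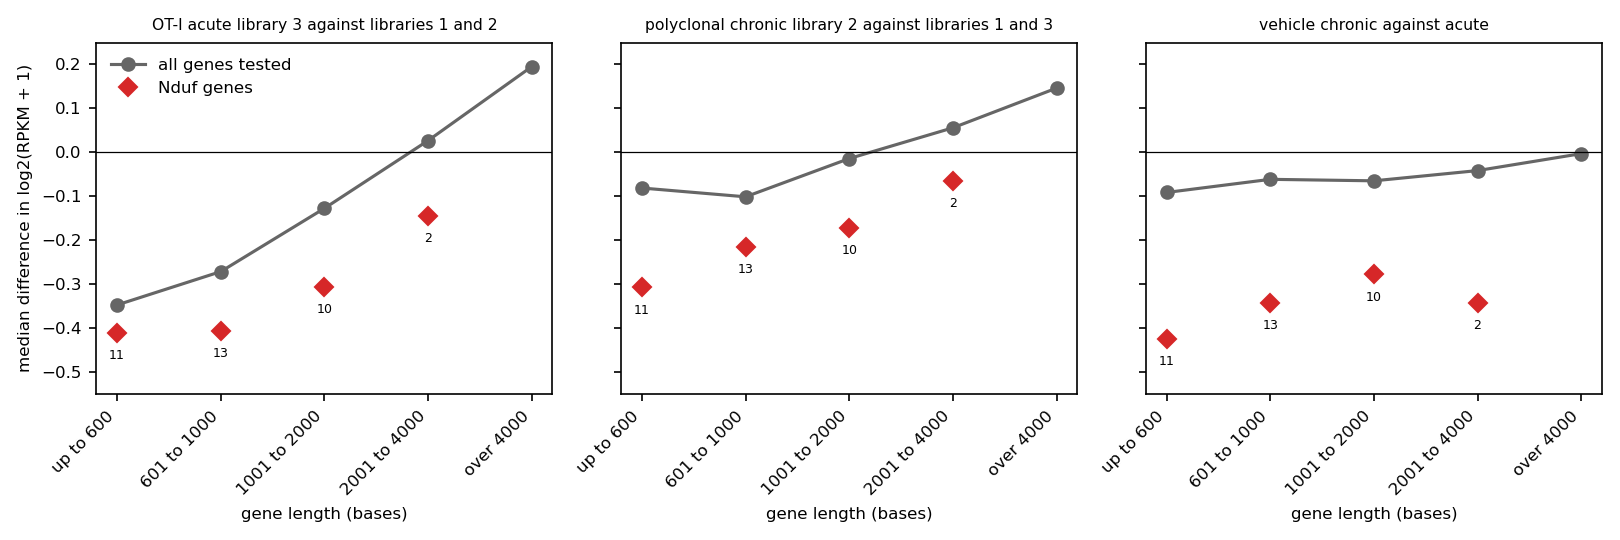
Median difference in log2(RPKM + 1) by gene length class (horizontal axis, bases) for all genes tested (grey) and for the Nduf genes (red diamonds, with their number), for OT-I acute library 3 and polyclonal chronic library 2 against the other libraries of their group, and for vehicle chronic against acute. The grey line rises with length in the first panel, and in the second from the class of 601 to 1000 bases on. In the third it stays between -0.09 and 0.00, and there the diamonds lie at -0.28 or lower.

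Falls in OT-I chronic cultures were called in both arms of the complex. Ndufv2, the iron-sulfur partner of the NADH-binding subunit, measured 100.4, 110.3 and 81.8 RPKM in OT-I acute and 59.3, 59.7 and 62.7 in OT-I chronic libraries. Even the low acute library 3 lay above all chronic ones (log2 change -0.67 ± 0.08 SE, adjusted p = 3.8e-07). Ndufa6 measured 191, 221 and 136 and 111, 113 and 121, without overlap (log2 change -0.63 ± 0.11 SE, adjusted p = 4.98e-05). Ndufs4 measured 55.9, 58.2 and 43.1 and 40.0, 38.3 and 39.2 (log2 change -0.40 ± 0.08 SE, adjusted p = 0.000281), and Ndufv3, a small N-module subunit, measured 77.5, 86.5 and 66.9 and 55.2, 53.4 and 58.3 (log2 change -0.46 ± 0.08 SE, adjusted p = 9.37e-05). In both, chronic libraries lay below all acute ones. Ndufb11, an X-linked membrane-arm subunit, measured 132, 155 and 90.5 and 89.2, 84.2 and 87.5, and acute library 3 was just above the highest chronic one (log2 change -0.49 ± 0.12 SE, adjusted p = 0.00135). Without library 3 these 5 genes were still called lower, with log2 changes of -0.79 for Ndufv2, -0.83 for Ndufa6, -0.53 for Ndufs4, -0.55 for Ndufv3 and -0.71 for Ndufb11. Without OT-I acute library 2, Ndufb11 was at -0.32.

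Other subunits rose in OT-I chronic cultures. Ndufa12 measured 50.3, 53.2 and 40.2 in acute and 71.3, 68.0 and 74.3 in chronic libraries, without overlap (log2 change 0.57 ± 0.09 SE, adjusted p = 2.28e-05). Ndufb8, of the distal membrane arm, measured 112, 115 and 82.3 and 127, 131 and 138 (log2 change 0.37 ± 0.09 SE, adjusted p = 0.00213), and Ndufa13 measured 61.3, 67.5 and 48.0 and 73.5, 71.7 and 78.7 (log2 change 0.35 ± 0.10 SE, adjusted p = 0.00679). Chronic libraries were above all acute ones in both. Without acute library 3, Ndufa12 and Ndufb8 were still called higher (log2 changes 0.45 and 0.22), and Ndufa13 (adjusted p = 0.0572 by limma) and Ndufa9 were not.

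Chronic effects differed between the experiments, and these differences were tested as interaction contrasts. The vehicle effect was more negative than the polyclonal effect for 18 of 36 genes and more positive for 1, Ndufa10, where 27.3% and 25.1% of all genes tested were so called. The largest differences were those of Ndufa4 (-1.54 in log2(RPKM + 1), adjusted p = 7.07e-11), Ndufc2 (-0.84, adjusted p = 7.56e-05) and Ndufb6 (-0.80, adjusted p = 0.000343). The OT-I effect was more positive than the vehicle effect for 15 genes and more negative for 2, beside 27.4% and 31.1% of all genes. Ndufa12 (1.00, adjusted p = 1.58e-06) and Ndufa5 (0.85, adjusted p = 3.32e-05) led upward, and Ndufa6 (-0.72) and Ndufv2 (-0.35) were the negative ones. Between OT-I and polyclonal cultures, 6 differences were positive and 8 negative, beside 26.6% and 29.2% of all genes. Each pair of these contrasts shares an experiment. OT-I cultures differ from both other experiments in strain and co-cultured melanoma cells, and from the polyclonal ones also in the stimulus. The vehicle and polyclonal sets are both C57BL/6, and vehicle was added in the vehicle set. The polyclonal chronic libraries also differ in CD8, CD4 and B cell markers, as given above. In each contrast, what sets a difference cannot be told apart.

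Assembly factors of complex I build the enzyme without staying in it, and 14 were measured. In vehicle chronic cultures 4 fell (Acad9, Ndufaf2, Nubpl and Tmem186) and Ndufaf3 rose (34.4% and 24.5% of all genes tested), the latter from 16.7 ± 0.593 to 21.1 ± 1.24 RPKM (SD, n = 3, log2 change 0.32 ± 0.08 SE, adjusted p = 0.00119). The median change was -0.16. Ndufaf2, the factor that Ndufa12 replaces, went from 24.1 ± 3.12 to 18.2 ± 2.15 (log2 change -0.38 ± 0.12 SE, adjusted p = 0.00867). In polyclonal cultures 4 rose and 2 fell, beside 28.6% and 35.5% of all genes. In OT-I cultures Nubpl alone fell and none rose, beside 36.2% lower and 22.4% higher among all genes. With NAC against vehicle chronic 4 rose and 2 fell, beside 38.5% and 22.6%. Nubpl, an iron-sulfur carrier protein for complex I, was lower in vehicle chronic (adjusted p = 0.0296) and higher with NAC than in vehicle chronic libraries (3.92 ± 0.0353, 3.16 ± 0.324 and 4.55 ± 0.683 RPKM in vehicle acute, vehicle chronic and NAC chronic libraries, SD, n = 3, adjusted p = 0.000682).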

How the data were processed

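Poly(A)+ RNA, extracted with Trizol, was made into libraries with the NEBNext Ultra kit, per the labels. The authors deposited 1 table of RPKM values for 13202 genes in 21 libraries. bcl2fastq 2.17, HTSeq, edgeR and mm9 are named in the submitters' processing notes without a role; for the aligner, annotation, normalization and strand setting nothing is stated (not given in the sources used). Whole reads were recovered from the RPKM steps for 100% of genes (tolerance 0.001 reads).

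RPKM values were tested as log2(RPKM + 1) with limma 3.58.1 (R 4.3.3) in a single fit over all 21 libraries (14 residual degrees of freedom, trended empirical Bayes, two-sided tests), with Benjamini-Hochberg adjustment over the 12630 genes with an RPKM of at least 1 in at least 3 libraries. Data at these sizes were simulated with the same spread in every group, and well-covered genes were changed in the vehicle comparison alone. There the fit recovered most genes changed 1.5-fold or more. That simulation does not speak for the polyclonal and OT-I comparisons or for smaller changes. Alternatives were a pseudocount of 0.1, no filter or an RPKM of 5, rescaling to a common median, fits of the compared groups only, a replicate block, limma-voom on recovered reads, and leaving out libraries. Library values are given for up to 8 called genes with the largest change per comparison, for the 3 highest and 3 lowest genes, and for Ndufa4. The values of 1 gene of the 36, which is included in the counts and sums, are not reported here. The genes and lists were chosen with earlier results of these data known. Deviations of same-numbered polyclonal libraries correlated across genes at 0.446, 0.629 and 0.168 (descriptive), more than in the other groups. Whether the numbers pair libraries was not tested. Shared windows were read from GENCODE vM21 transcripts, and 14 Nduf genes overlap another annotated gene, whose reads may not be told apart: on the opposite strand Ndufb2 (Braf, Gm16272), Ndufa9 (1700018A23Rik), Ndufb6 (Smim27), Ndufb11 (Rbm10), Ndufa3 (Tfpt), Ndufb5 (Mrpl47), Ndufs1 (Ino80dos), Ndufab1 (Gm44986), Ndufa13 (Tssk6), Ndufa2 (Tmco6), Ndufs3 (Kbtbd4) and Ndufs6 (Mrpl36), and on the same strand Ndufb2 (Gm42420), Ndufb8 (Gm20538) and Ndufb9 (Gm49356). Replicate counts within a group differed by more than counting error in all 21 pairs, so each library was counted once.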

Additional observations from a re-analysis of the deposited data

Results flagged for a closer look

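The effect of chronic stimulation differed between experiments for the genes below, each by an interaction contrast in limma across all genes (differences in log2(RPKM + 1), adjusted over 12630 genes, 3 libraries a group). No explanation was tested.

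The OT-I effect exceeded the vehicle effect by 1.00 for Ndufa12 (adjusted p = 1.58e-06), 0.85 for Ndufa5 (adjusted p = 3.32e-05), 0.73 for Ndufb8 (adjusted p = 8.69e-05), 0.69 for Ndufa4 (adjusted p = 5.62e-06), 0.67 for Ndufa9 (adjusted p = 6.64e-06), 0.61 for Ndufb2 (adjusted p = 0.0135) and 0.59 for Ndufs8 (adjusted p = 1.58e-05). For Ndufa6 the difference was -0.72 (adjusted p = 0.000422), with OT-I chronic libraries below OT-I acute ones and no call in vehicle cultures. Without OT-I acute library 3 the Ndufb2 difference was 0.40 (limma adjusted p = 0.0369).

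Between OT-I and polyclonal cultures the difference was -0.97 for Ndufv2 (adjusted p = 2.66e-07), which was lower in OT-I chronic and higher in polyclonal chronic cultures. It was -0.88 for Ndufa6 (adjusted p = 6e-05), -0.84 for Ndufa4 (adjusted p = 4.55e-07), -0.53 for Ndufc1 (adjusted p = 0.00175) and -0.46 for Ndufb6 (adjusted p = 0.0223). Positive differences were 0.54 for Ndufs3 (adjusted p = 0.00198), 0.49 for Ndufa10 (adjusted p = 3.35e-06) and 0.46 for Ndufa13 (adjusted p = 0.0108). The Ndufb6 call was lost with libraries rescaled to a common median (limma adjusted p = 0.0771), with only the compared groups fitted (0.0772) and without OT-I acute library 1 or 2, polyclonal acute library 2 or polyclonal chronic library 1 or 3 (0.0583 to 0.0718), and that of Ndufa13 was lost with only the compared groups fitted (0.05002). Without OT-I acute library 3 and library 2 of both polyclonal groups, Ndufa13 was at 0.19 and Ndufs3 at 0.28.

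The vehicle effect lay below the polyclonal effect by a difference of -1.54 for Ndufa4 (adjusted p = 7.07e-11), -0.84 for Ndufc2 (adjusted p = 7.56e-05), -0.80 for Ndufb6 (adjusted p = 0.000343), -0.78 for Ndufa12 (adjusted p = 3.93e-05), -0.72 for Ndufc1 (adjusted p = 0.000108), -0.70 for Ndufa5 (adjusted p = 0.000288), -0.68 for Ndufab1 (adjusted p = 0.0192) and -0.62 for Ndufv2 (adjusted p = 7.6e-05). Ndufa4, Ndufb6, Ndufa12, Ndufc1 and Ndufv2 were called higher in polyclonal chronic and lower in vehicle chronic libraries, each against its acute group. Of these, the polyclonal Ndufc1 call was lost with only the compared groups fitted (limma adjusted p = 0.0562), on recovered reads (0.118) and without polyclonal acute library 1 or 3 or polyclonal chronic library 1 or 3 (0.0595 to 0.187), and the polyclonal Ndufa12 call was lost on recovered reads (0.119). The Ndufab1 difference lost its call with only the compared groups fitted (0.0513), on recovered reads (0.0573) and without polyclonal acute library 3, polyclonal chronic library 2, vehicle acute library 1 or vehicle chronic library 1 (0.0533 to 0.0697).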

How the results depend on the processing

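The 26 genes lower in vehicle chronic cultures numbered 22 to 29 under every alternative run, single libraries left out included, and the 23 lower with NAC against vehicle acute numbered 19 to 23 with single libraries left out. With libraries rescaled to a common median, polyclonal calls lower were 3 and OT-I calls lower 5, NAC against vehicle chronic had 1 higher and 13 lower, the OT-I effect was below the vehicle effect for 1 gene and below the polyclonal effect for 4, and the vehicle effect exceeded the polyclonal effect for 0 (limma, 1 with all libraries as deposited). Ndufs1 turned from 0.05 to -0.12 in NAC against vehicle chronic (limma adjusted p = 0.0439). Rescaling also moved the share of called genes that were higher from 38.2% to 49.6% in OT-I and from 54.8% to 42.9% in NAC against vehicle acute; the cause was not tested. With only the compared groups fitted, 3 genes were higher in vehicle chronic, 8 were higher and 8 lower with NAC against vehicle chronic, and the OT-I effect was above the polyclonal effect for 3 and below it for 4. limma-voom on recovered reads called 3 higher and 4 lower in polyclonal cultures.

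Leave-outs chosen after seeing the data were OT-I acute library 3 with library 2 of both polyclonal groups. They gave 12 higher in polyclonal, 18 lower in OT-I, 2 higher in vehicle, 8 higher and 9 lower in NAC against vehicle chronic, and an OT-I effect below the vehicle effect for 5 and below the polyclonal effect for 15. Without the polyclonal libraries numbered 2, 3 were lower in polyclonal cultures and the vehicle effect exceeded the polyclonal effect for 0 (Ndufa10 no longer passed). Leaving out single libraries gave 4 to 10 higher and 2 to 9 lower in polyclonal, 2 to 5 higher and 7 to 17 lower in OT-I, and 0 to 1 higher in vehicle cultures. It gave 2 to 4 genes for an OT-I effect below the vehicle effect, 4 to 12 for one below the polyclonal effect (fewest without OT-I acute library 1 or 2 or polyclonal chronic library 3), and 0 to 2 for a vehicle effect above the polyclonal effect.

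With the replicate number as a block, polyclonal counts stayed at 7 higher and 7 lower. Over all comparisons the block added 9 calls and ended 1, that of Ndufs6 in vehicle cultures (adjusted p = 0.0543). Outside the polyclonal groups, correlations of same-numbered deviations lay between -0.17 and 0.08. Depth limits Ndufb4 most.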
